A study of Mus musculus with 20 samples.

Results

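Potassium channels are membrane pores that let potassium leave the cell, set the resting potential, end action potentials and limit repetitive firing. They are built from pore-forming subunits of several families, among them voltage-gated (Kv), calcium- or sodium-activated, inwardly rectifying (Kir) and K2P leak channels, together with auxiliary subunits that change their gating or surface expression. In the amygdala, a forebrain region for fear and anxiety, these channels shape how readily principal neurons and interneurons fire.

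The potassium channel genes described here are all genes whose symbol begins with Kcn followed by a letter, except Kcnj13, Kcne2 and Kcnq1ot1, each measured by its probe set with the highest mean signal. They came to 90 genes of 19933 symbols on the array, read from 93 probe sets of 28767. Of the 90 genes 71 encode pore-forming subunits, 15 auxiliary subunits, and 4 are antisense transcripts or a regulator (Kcnrg, Kcnmb4os1, Kcnmb4os2 and Kcnd3os). The families held 8 Kv1, 1 Kv2, 3 Kv3, 3 Kv4, 10 silent Kv, 3 Kv7, 7 EAG, 8 calcium- or sodium-activated, 14 Kir and 14 K2P genes.

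RNA of the left and right amygdala was hybridized from 20 male mice of the C57BL/6 background (C57BL/6J in the methods) aged 7 months, 1 mouse per array and 5 per group. All mice descended from heterozygous parents of a line with a constitutive knockout of the serotonin transporter 5-HTT, and the groups were wild-type (WT) or homozygous knockout (KO) mice under a control condition (con) of 1 min in the home cage or an acute stressor (stress) of 1 min in water at 22 °C. Every animal had been housed singly and tested on the elevated plus-maze beforehand, and brains were processed up to 540 sec after the start. The comparisons ask how channel transcripts differed after the stressor within each genotype and between genotypes within each condition.

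Values are log2 signals, so that a difference of 1 is a doubling, and errors are SD over 5 arrays unless an SE of a difference is named. Slc6a4, the targeted gene, read 5.82 to 7.82 in the 10 arrays labelled WT and 8.10 to 8.38 in the 10 labelled KO. Of the WT arrays, WT con replicate 5 alone read 7.82, near the KO values, and the next highest, WT con replicate 1, read 6.73. The cause was not tested, and WT con replicate 5 was kept. The groups did not overlap, with the higher signal in KO. Where its probes lie relative to the deleted sequence is not known here, so that this signal does not check the loss of the transporter, and the genotypes are named as labelled. Pairs of arrays correlated at 0.948 to 0.996, with WT stress replicate 1 (median correlation 0.961) and WT con replicate 1 (0.978) the least like the others. Where a count of called channel genes moved by over 1.5 times without both arrays, both counts are given.

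The mean signal of the channel genes ran from 4.81 to 10.04, on a scale that differs from probe set to probe set, and 88 of 90 had a mean of 5 or more, all but Kcne3 and Kcnj14. The SD within groups had a median of 0.242 for channel genes and 0.176 for all probe sets. It was largest for Kcnj4 (0.695), Kcnh3 (0.664), Kcng4 (0.574), Kcnc2 (0.550) and Kcnip4 (0.536), and smallest for Kcnu1 (0.0659), Kcne1 (0.0878), Kcnj15 (0.0972), Kcne3 (0.0984) and Kcna10 (0.106). A difference of given size was thus resolved less well for Kcnj4 than for Kcnj15. For 3 genes the array had a further probe set, and over the 20 arrays it correlated with the one used at r = 0.238 for Kcnma1, 0.569 for Kcnh8 and 0.477 for Kcna2.

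The 10 genes with the clearest dependence of the stress difference on genotype include 4 for which the bases around an annotated start are shown here, as examples of how different the promoters of these genes are. Each runs from 250 bases before to 50 bases after a transcription start of the RefSeq annotation of GRCm38.p6, 5′ to 3′ on the strand of the gene. Capitals mark the E-box CACGTG in Kcnj2 and the reverse complement of TGACG, the core of the cAMP response element, in Kcnab2.
Kcnj2, chr11:111065914-111066213, plus strand: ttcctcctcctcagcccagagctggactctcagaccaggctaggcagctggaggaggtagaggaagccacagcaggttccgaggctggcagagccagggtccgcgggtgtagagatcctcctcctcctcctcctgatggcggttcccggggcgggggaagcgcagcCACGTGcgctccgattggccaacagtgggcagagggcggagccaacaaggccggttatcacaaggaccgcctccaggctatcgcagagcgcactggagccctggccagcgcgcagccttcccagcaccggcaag
Kcnab2, chr4:152477500-152477799, minus strand: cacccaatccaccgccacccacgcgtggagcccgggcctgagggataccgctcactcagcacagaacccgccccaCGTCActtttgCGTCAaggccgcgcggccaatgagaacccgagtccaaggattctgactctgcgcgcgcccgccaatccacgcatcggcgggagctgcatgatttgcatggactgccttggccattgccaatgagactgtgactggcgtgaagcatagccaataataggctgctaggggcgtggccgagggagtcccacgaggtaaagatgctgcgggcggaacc
Kcnmb4, chr10:116473474-116473773, minus strand: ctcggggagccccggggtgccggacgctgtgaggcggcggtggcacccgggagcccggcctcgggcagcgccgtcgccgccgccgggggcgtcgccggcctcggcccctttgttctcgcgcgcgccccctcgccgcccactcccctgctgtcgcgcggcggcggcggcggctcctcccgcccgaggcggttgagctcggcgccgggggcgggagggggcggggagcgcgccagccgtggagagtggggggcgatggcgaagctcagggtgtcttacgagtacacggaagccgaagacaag
Kcnmb2, chr3:31902453-31902752, plus strand: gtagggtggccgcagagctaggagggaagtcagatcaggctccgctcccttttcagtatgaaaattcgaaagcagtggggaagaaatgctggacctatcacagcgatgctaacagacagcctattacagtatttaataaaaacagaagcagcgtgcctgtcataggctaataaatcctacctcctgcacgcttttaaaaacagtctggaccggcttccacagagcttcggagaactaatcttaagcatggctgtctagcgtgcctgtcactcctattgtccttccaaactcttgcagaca

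The window of Kcnmb4 held 48 CG dinucleotides and 79% G and C, that of Kcnab2 25 and 62.7%, that of Kcnj2 18 and 66.7%, and that of Kcnmb2 9 and 47.7%. Of the 90 channel genes 68 had a window in the table used, 92 windows in all, and 7 of the 10 genes above had 10 windows. Counting both strands, the core TGACG occurred in 15 of 92 channel windows (16.3%) and in 20.8% of 32851 windows of all genes, and among the 10 windows in 1 of Kcnab2. The full element TGACGTCA, which contains that core, occurred in 0 of 92 against 1.79%. The AP-1 site TGANTCA occurred in 4 of 92 (4.35%) against 7.81%, the Egr site GCGTGGGCG in 0 against 0.612%, and the E-box in 7 (7.61%), Kcnj2 among them, against 7.15%. These are matches of letters and not sites of binding.

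No channel gene passed the Benjamini-Hochberg threshold of 0.05 of limma in any comparison, and 0 of 28767 probe sets did within WT, within KO, between the control groups or in the interaction, against 1 (0.00348%) in stress KO vs. WT. The same counts of 0 and 1 held for the averages over genotypes and over conditions. Genes are therefore described at an unadjusted limma p under 0.05, beside the share of all probe sets that met the same rule. The adjusted p of each interaction was 1.00. In the interaction, the stress difference in KO minus that in WT, 10 of 90 channel genes (11.1%) were called, all toward lower values in KO, where 1.81% of all probe sets were called, and 0 channel genes were called in the other direction (0.702% of all). At a difference over 1.5-fold with that p, 5 channel genes were called (5.56% against 0.355%), namely Kcnj2, Kcna4, Kcnq3, Kcnab2 and Kcnab3. By the same rule WT stress vs. con had 1 higher gene (Kcnj2, where 0.222% of all probe sets were called), KO stress vs. con and con KO vs. WT had 0 (0.139% and 0.0487% of all), and stress KO vs. WT had 2 higher (Kcnmb1 and Kcnj16, 0.348% of all) and 1 lower (Kcnj2, 0.421% of all).

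**Figure D1:**
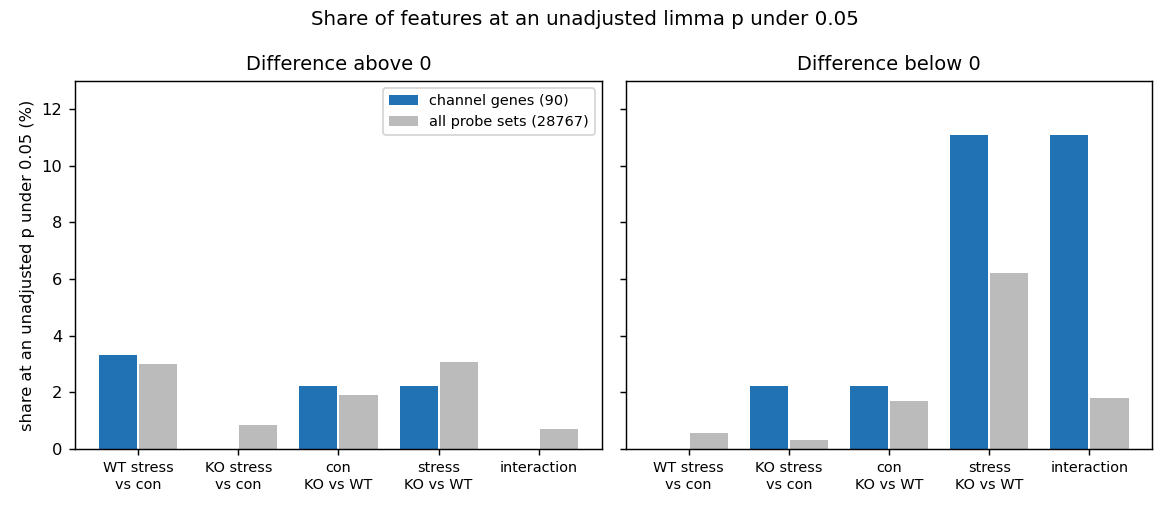
Percentage of the 90 channel genes (blue) and of all 28767 probe sets (grey) at an unadjusted limma p under 0.05, by comparison, with differences above 0 on the left and below 0 on the right. In the interaction 11.1% of the channel genes lie below 0 against 1.81% of all probe sets, and none lies above 0.

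Kcnq3, a Kv7 subunit of the M-current that restrains repetitive firing, gave the smallest unadjusted p in the interaction, 0.00408 by limma. Its log2 signals were 9.65, 9.69, 9.06, 9.21 and 9.31 in WT con and 9.66, 9.79, 9.75, 9.98 and 9.94 in WT stress. In KO con they were 10.18, 9.41, 9.68, 9.23 and 9.71, and in KO stress 9.61, 9.01, 9.49, 9.37 and 9.24. Of the WT stress arrays 4 lay above every WT con array, and all 5 KO stress arrays lay below every WT stress array, whereas the KO con arrays, at 9.23 to 10.18, overlapped all other groups. The interaction was -0.74 (SE 0.22). WT stress vs. con differed by 0.44 (SE 0.16, limma p = 0.0125, exact permutation p = 0.0159, two-sided), and the mean was 9.82 ± 0.13 in WT stress and 9.38 ± 0.27 in WT con. KO stress vs. con differed by -0.30 (limma p = 0.0772), and stress KO vs. WT by -0.48 (limma p = 0.00707, exact permutation p = 0.00794, the smallest that 5 against 5 arrays allow).

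The Kv1 genes Kcna1, a low-threshold axonal channel, and Kcna4, a rapidly inactivating one, were both called in the interaction. Kcna1 read 8.997, 8.84, 8.93, 8.81 and 8.49 in WT con, 8.88, 8.94, 9.22, 9.30 and 9.02 in WT stress, 8.96, 8.97, 8.98, 9.18 and 8.89 in KO con, and 8.30, 8.86, 8.61, 9.09 and 8.82 in KO stress. At 9.02 or more, 3 WT stress arrays lay above all WT con arrays, and 4 KO stress arrays lay below all KO con arrays. The interaction of Kcna1 was -0.52 (SE 0.18), with 0.26 in WT (exact permutation p = 0.0556) and -0.26 in KO (exact permutation p = 0.103). Kcna4 had the larger interaction of -0.82 with a wider error (SE 0.38), since WT con ran from 7.57 to 9.02 and WT stress from 8.08 to 9.17, against 8.05 to 9.01 in KO con and 8.13 to 8.57 in KO stress. The call of Kcna4 was lost in 16 of 32 alternatives. Over the 8 Kv1 genes 6 were higher in WT stress and 7 lower in KO stress, against 62.8% and 51% of all probe sets. Kcna1 and Kcna4 are in both counts, and the median differences were 0.06 and -0.09.

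Kcnab2 and Kcnab3 encode cytoplasmic beta subunits that bind Kv1 channels. Kcnab3 read 7.54, 7.10, 6.94, 6.88 and 7.32 in WT con, 7.09, 7.77, 7.54, 7.23 and 7.37 in WT stress, 7.94, 7.75, 7.83, 7.17 and 7.16 in KO con, and 7.31, 7.08, 7.49, 6.60 and 7.09 in KO stress. Of the KO stress arrays 3 lay below every KO con array, and 3 KO con arrays above every WT con array. The interaction was -0.70 (SE 0.27), KO stress vs. con -0.46 (SE 0.19, limma p = 0.0272, exact permutation p = 0.0794) and con KO vs. WT 0.41 (limma p = 0.0435, exact permutation p = 0.0794). The KO stress call was lost in 7 of 35 alternatives. Kcnab2 had an interaction of -0.72 (SE 0.32). Its higher WT stress mean came from WT stress replicates 4 and 5 at 11.15 and 10.85, since the other 3 read 9.77 to 9.97, inside the WT con range of 9.67 to 10.24. Without either array the call was lost, with interactions of -0.51 and -0.59. The call was lost in 11 of 32 alternatives, 9 of which left out 1 array, WT con and KO arrays among them. Kcnab1 was not called in any of the comparisons.

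Kcnj2 encodes a strong inward rectifier that holds the resting potential and had the largest interaction of all 90 genes, -1.11 (SE 0.42). It read 7.31, 6.37, 6.03, 5.88 and 5.52 in WT con, 6.67, 7.35, 7.18, 6.66 and 6.81 in WT stress, 7.24, 6.99, 6.36, 5.96 and 6.98 in KO con, and 6.37, 6.16, 6.62, 6.63 and 5.77 in KO stress. Every KO stress array lay below every WT stress array, while WT con replicate 1 read nearly as high as the highest WT stress array. Stress KO vs. WT differed by -0.63 (limma p = 0.0476, exact permutation p = 0.00794) and WT stress vs. con by 0.71 (SE 0.29, limma p = 0.026, exact permutation p = 0.0714). The former call was lost in 16 of 34 alternatives, 12 of which left out 1 array. The latter was lost when any of WT con replicates 3, 4 and 5 or WT stress replicates 2 and 3 was left out (differences of 0.54 to 0.67). Kcnj2 was among the genes the study listed for stress KO vs. WT on these arrays, so that the call is not independent evidence of its direction. Groups without overlap occurred for 2 of 90 channel genes in stress KO vs. WT, Kcnj2 and Kcnq3, both lower in KO (2.22% against 0.66% of all probe sets), and for 0 in either direction of the other 3 comparisons (0.0452% to 0.445% of all probe sets).

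Kcnmb2 and Kcnmb4 encode beta subunits of the large-conductance calcium-activated channel, of which Kcnmb4 is the main neuronal form and Kcnmb2 confers inactivation. Kcnmb2 read 6.01, 6.39, 6.00, 6.01 and 6.14 in WT con, 6.34, 6.34, 6.23, 6.06 and 6.22 in WT stress, 6.32, 6.36, 6.60, 6.15 and 6.08 in KO con, and 6.22, 6.02, 5.91, 6.06 and 5.90 in KO stress. Of the KO stress arrays 4 lay below every KO con array. KO stress vs. con differed by -0.28 (SE 0.10, limma p = 0.0109, exact permutation p = 0.0397), and the interaction was -0.41 (SE 0.14). Kcnmb4 read 7.81, 7.54, 7.44, 7.08 and 7.46 in WT con, 7.61, 7.80, 7.67, 7.79 and 8.15 in WT stress, 8.22, 7.70, 7.65, 7.37 and 7.60 in KO con, and 7.66, 7.23, 7.68, 7.55 and 7.21 in KO stress. The groups overlapped in each comparison of Kcnmb4. Its interaction was -0.58 (SE 0.22), with 0.34 in WT stress vs. con (limma p = 0.0434, exact permutation p = 0.0476), a call lost in 13 of 35 alternatives. The pore gene Kcnma1 of the same channel differed by 0.32 in WT and by -0.09 in KO and was not called.

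Kcns3, a silent Kv subunit that assembles with Kv2 subunits, and Kcnk4, a mechanosensitive K2P leak channel, completed the called genes. Kcns3 ran from 6.36 to 6.996 in WT con, 6.71 to 7.12 in WT stress, 6.60 to 7.004 in KO con and 6.32 to 6.79 in KO stress, with an interaction of -0.39 (SE 0.17). Kcnk4 ran from 6.87 to 7.34, 6.95 to 7.67, 6.90 to 7.25 and 6.69 to 7.15 in the same order, with an interaction of -0.45 (SE 0.20). The 4 groups of either gene overlapped, and these calls were lost in 10 and 14 of 32 alternatives. The interaction calls of Kcnq3, Kcnmb2, Kcna1, Kcnj2, Kcnmb4 and Kcnab3 held in all 32.

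**Figure D2:**
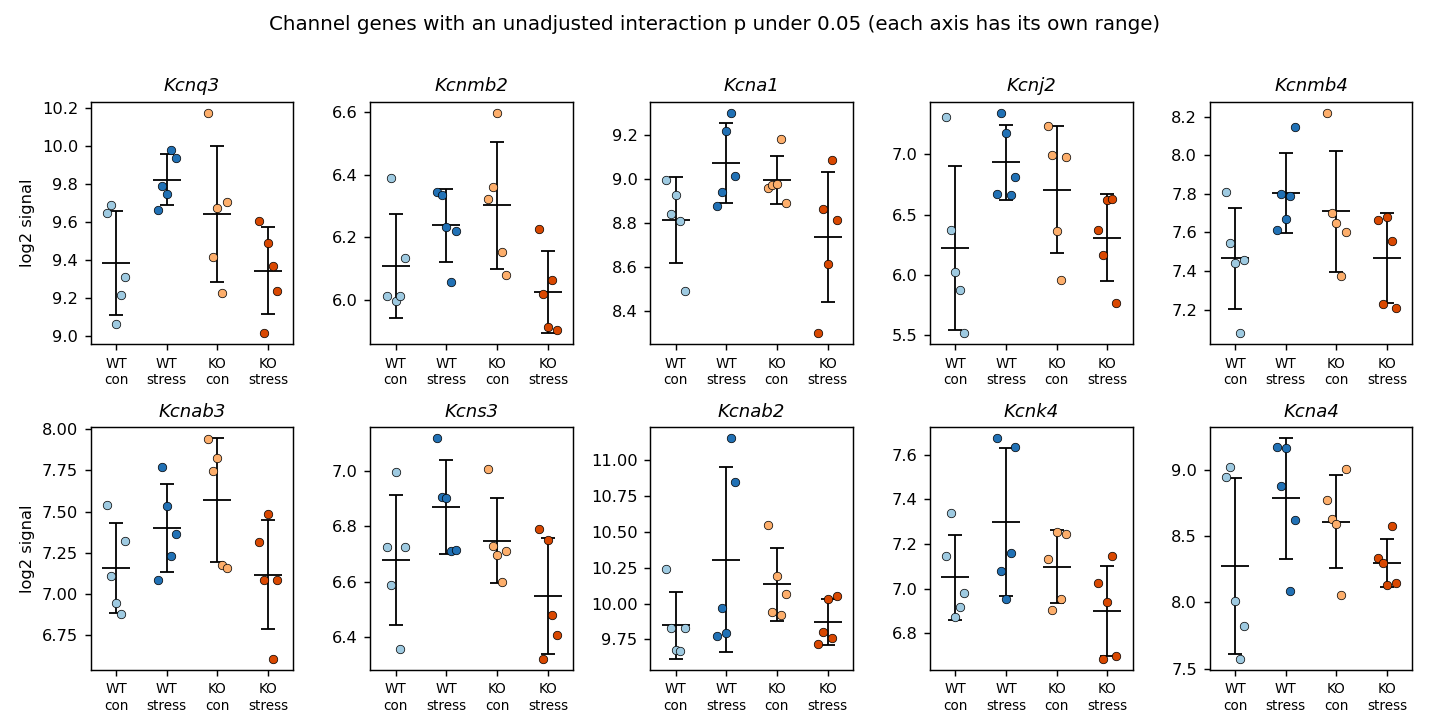
Log2 signal of each array (points, 5 per group) for the 10 channel genes with an unadjusted interaction p under 0.05, with group mean (wide line) and SD (error bar), and an axis range of its own for each gene. In all 10 genes the mean is higher in WT stress than in WT con and lower in KO stress than in KO con, and for Kcnq3 and Kcnj2 every KO stress point lies below every WT stress point.

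The pattern of these 10 genes, higher in WT and lower in KO after stress, was counted over all 90. After stress 62 of 90 (68.9%) had a higher mean in WT, against 62.8% of all probe sets, and 62 of 90 had a lower mean in KO, against 51%. The share in WT is thus near that of all probe sets. Both held for 47 genes (52.2%), against 33.4% of all probe sets, and the reverse pattern for 13 (14.4% against 19.3%). Another 15 were higher in both genotypes and 15 lower in both, against 29.1% and 17.6% of all probe sets. The joint count depends on the share in each genotype and includes the 10 called genes that gave the pattern, so that it is not separate support for it. The WT and KO stress comparisons share no arrays. The median difference was 0.05 in WT (all probe sets 0.03) and -0.05 in KO (all probe sets 0.00). Between the control groups 58 of 90 channel genes had a higher mean in KO (64.4% against 50% of all probe sets). Their median difference was 0.09 (all probe sets 0.00). The control groups thus differed as well, and each enters the stress difference of its genotype.

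The joint count of 47 ranged from 43 to 54 when each array was left out, and was 43 without both arrays that stand apart (28.4% of all probe sets). Without both, 53 channel genes were higher in WT stress (58.9% against 51.3% of all) with a median difference of 0.06, and 62 were lower in KO stress as before. It was 43 after median centring of each array (34.5% of all probe sets) and 42 after quantile normalization (28.4%). The 2 parts of the pattern moved more with the scaling. Under median centring 51 channel genes were higher in WT stress (56.7% against 46.7% of all) and 71 lower in KO stress (78.9% against 71.9% of all).

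**Figure D3:**
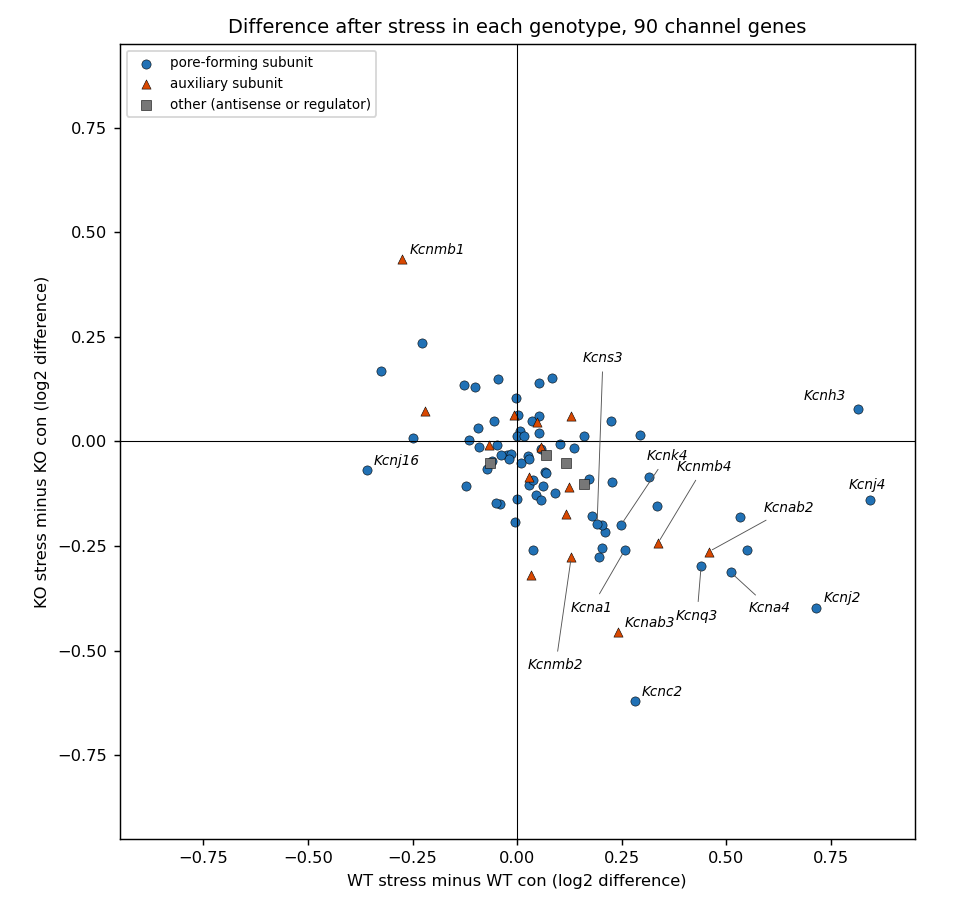
Difference after stress in WT (x axis) and in KO (y axis), both in log2 units, for the 90 channel genes, with symbols by subunit type and the genes described named. The lower right part of the plot, higher in WT and lower in KO, holds 47 of 90 genes, and the upper left 13, with Kcnmb1 the farthest out.

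By family, the 3 Kv7 genes and the 3 Kv3 genes, channels of fast-spiking cells, each had a higher mean in WT stress and an interaction below 0, with medians of -0.46 and -0.30. Of all probe sets 59.7% had an interaction below 0. Kcnq1 was near 0 in both, at 0.02 in WT stress vs. con and -0.004 in the interaction, and Kcnc1 differed by only 0.04 in WT. The auxiliary subunits held 4 of the 10 called genes, and 11 of 15 were higher in WT stress and 10 of 15 lower in KO stress. Of the 14 Kir genes 9 were higher in WT stress and 10 lower in KO stress, and of the 14 K2P genes 9 and 9. These counts stand against 62.8% of all probe sets higher in WT stress and 51% lower in KO stress, and the WT shares of Kir and K2P genes (9 of 14) and of calcium- or sodium-activated genes (5 of 8) are near that background. The calcium- or sodium-activated channels were divided, with 5 of 8 higher in WT stress, 5 of 8 higher in KO stress and a median interaction of -0.01. Among them Kcnn3, a small-conductance channel, had an interaction of 0.49 (SE 0.26), which was not called.

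**Figure D4:**
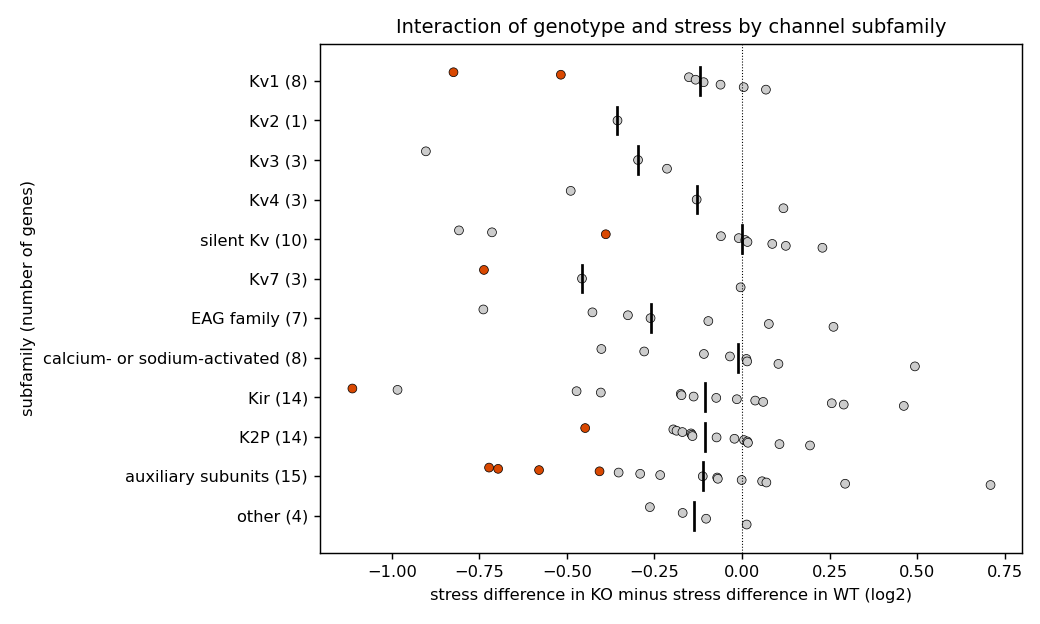
Interaction of genotype and stress (stress difference in KO minus that in WT, log2 units) for each channel gene, grouped by family with the number of genes in brackets. Black bars are family medians, and red points are genes with an unadjusted limma p under 0.05. All red points lie left of 0, in 6 of the 12 groups.

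In WT stress vs. con, 3 channel genes were called higher and 0 lower (3.33% and 0%, against 2.99% and 0.556% of all probe sets), Kcnq3, Kcnj2 and Kcnmb4. Without both arrays that stand apart 10 were higher and 1 lower, and with the replicate number as a block within WT 6 were higher and 0 lower, namely Kcnv1, Kcnh3, Kcnq3, Kcnj4, Kcna4 and Kcnj2. The share of all probe sets called under these settings is not given here, so that these counts do not set channel genes apart. Kcnv1, a silent Kv subunit, was higher in each of the 5 same-numbered WT pairs, by 0.61, 0.63, 0.48, 0.39 and 0.56. Its mean difference was 0.53, with an SE of 0.06 with the block and 0.26 without it, the exact sign-flip p over the pairs was 0.0625, the smallest that 5 pairs allow, and the adjusted limma p with the block was 1.00. Kcnq3 was also higher in 5 of 5 pairs, and the other 4 genes in 4 of 5. In KO stress vs. con Kcnv1 differed by -0.18. The largest differences belonged to genes that did not pass, Kcnj4, an inward rectifier of forebrain neurons, and Kcnh3, an EAG-family channel of the forebrain. Kcnj4 read 8.42, 6.50, 6.74, 6.36 and 6.51 in WT con and 8.04, 7.88, 7.997, 7.63 and 7.20 in WT stress, with a difference of 0.84 (SE 0.41, exact permutation p = 0.0794). Kcnh3 read 8.67, 7.02, 7.37, 6.65 and 7.07 in WT con and 8.62, 8.14, 8.29, 8.04 and 7.77 in WT stress, with a difference of 0.82 (SE 0.40, exact permutation p = 0.0635). In both genes WT con replicate 1 alone was above the WT stress arrays, and the other 4 WT con arrays lay below all of them. The lowest differences were those of Kcnj16 (-0.36), Kcnn3 (-0.33) and Kcnmb1 (-0.27), none of them called.

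In KO stress vs. con, 2 channel genes were called lower, Kcnmb2 and Kcnab3 (2.22% against 0.306% of all probe sets), and 0 higher (0.827% of all). The largest decrease in mean was that of Kcnc2, a Kv3 channel of fast-spiking interneurons. It read 9.71, 9.63, 10.55, 9.40 and 9.70 in KO con and 9.26, 8.95, 9.57, 8.83 and 9.28 in KO stress. Of the KO stress arrays 4 lay below every KO con array. The difference was -0.62 (SE 0.33) and the answer depended on the test, with a limma p of 0.0745 over all 20 arrays, 0.0182 by limma on the 10 KO arrays alone and an exact permutation p of 0.0159. Without WT con replicate 2, which read 10.56, the limma p over the remaining arrays was 0.0303. Kcnc2 is among the genes the study listed for this comparison on the same arrays. The highest differences were 0.43 for Kcnmb1, 0.23 for Kcnj5, a G protein-gated channel, and 0.17 for Kcnn3, with 0 of them called.

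In con KO vs. WT, which shares its arrays with both stress comparisons, 2 channel genes were called higher and 2 lower (2.22% each, against 1.9% and 1.67% of all probe sets). Kcnip3, a calcium-binding partner of Kv4 channels also known as calsenilin, read 8.43, 8.92, 8.23, 8.21 and 8.21 in WT con and 8.98, 8.71, 8.90, 9.003 and 8.66 in KO con. All KO con arrays lay above 4 of the 5 WT con arrays, and WT con replicate 2 lay within the KO range. The difference of 0.45 (SE 0.14, limma p = 0.0039, exact permutation p = 0.0317) held its call in each alternative. Kcnab3, with the values given above, was the other higher gene, a call lost in 11 of 34 alternatives. Kcnmb3, a further beta subunit of the large-conductance channel, was lower by 0.29 in KO con (6.48 ± 0.17 against 6.76 ± 0.21, limma p = 0.0359, exact permutation p = 0.0556). Kcna7, a Kv1 channel known from muscle, differed by -0.19 (5.78 ± 0.12 against 5.96 ± 0.10, limma p = 0.0364, exact permutation p = 0.0317). These 2 calls were lost in 8 and 10 of 34 alternatives, and without either of the arrays WT con replicate 1 or KO con replicate 1 among them. Kcnj4 (0.52), Kcnj2 (0.49) and Kcnc2 (0.47) had the highest differences and were not called, nor were Kcnk6 (-0.25) and Kcnj5 (-0.19).

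In stress KO vs. WT, which also shares its arrays with both stress comparisons, 10 channel genes were called lower in KO and 2 higher (11.1% and 2.22%, against 6.23% and 3.05% of all probe sets), and 66 of 90 had a lower mean in KO (73.3% against 58.6%). Without both arrays that stand apart, 8 were called lower and 0 higher, and 59 had a lower mean (65.6% against 56%). The lower genes were Kcnq3, Kcnj2, Kcna1, Kcnmb2, Kcnmb4, Kcns3 and Kcnk4, described above, with Kcnj11, Kcnj15 and the antisense transcript Kcnmb4os1. In this comparison the calls of Kcnj2, Kcnmb4, Kcnmb4os1, Kcnmb2 and Kcnj15 were lost in 16, 14, 13, 11 and 6 of 34 alternatives. Those of Kcna1, Kcnk4 and Kcns3 were lost in 2, 1 and 1, and those of Kcnq3 and Kcnj11 held in each. Kcnj11, the pore of the ATP-sensitive potassium channel, read 7.97, 7.66, 7.57, 8.02 and 7.82 in WT stress and 7.42, 7.46, 7.67, 7.44 and 7.19 in KO stress. Of the KO stress arrays 4 lay below every WT stress array. Its difference was -0.37 (SE 0.14, limma p = 0.0164, exact permutation p = 0.0238). Abcc8, which encodes the sulfonylurea receptor of the same channel, differed by -0.27 in this comparison and by 0.29 in WT stress vs. con, both called. Kcnj15, a further inward rectifier, differed by -0.16 (exact permutation p = 0.0397) and Kcnmb4os1 by -0.17 (exact permutation p = 0.0635). Kcnh3 (-0.51) and Kcna4 (-0.49) were lower without passing.

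The 2 genes higher in KO stress were Kcnmb1, the beta subunit of the large-conductance channel in smooth muscle, and Kcnj16, an inward rectifier of astrocytes. Kcnmb1 read 5.75, 5.88, 5.74, 6.38 and 6.37 in WT stress and 6.15, 7.04, 6.26, 7.10 and 6.70 in KO stress. Of the KO stress arrays 3 lay above every WT stress array, and the difference was 0.63 (SE 0.29, limma p = 0.044, exact permutation p = 0.0476). The call was lost in 11 of 34 alternatives, 7 of which left out 1 array, and without both arrays that stand apart. The study listed Kcnmb1 for this comparison. Kcnj16 read 6.57, 8.36, 8.10, 6.91 and 7.15 in WT stress and 8.23, 7.98, 8.41, 7.64 and 7.97 in KO stress. Of the WT stress arrays 2 lay inside the KO range and 3 below it. The difference was 0.63 (SE 0.27, limma p = 0.0339) with an exact permutation p of 0.143, and fell to 0.41 (limma p = 0.124) without WT stress replicate 1. Kcnip1, a Kv4 partner, had a difference of 0.50 (exact permutation p = 0.0556).

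**Figure D5:**
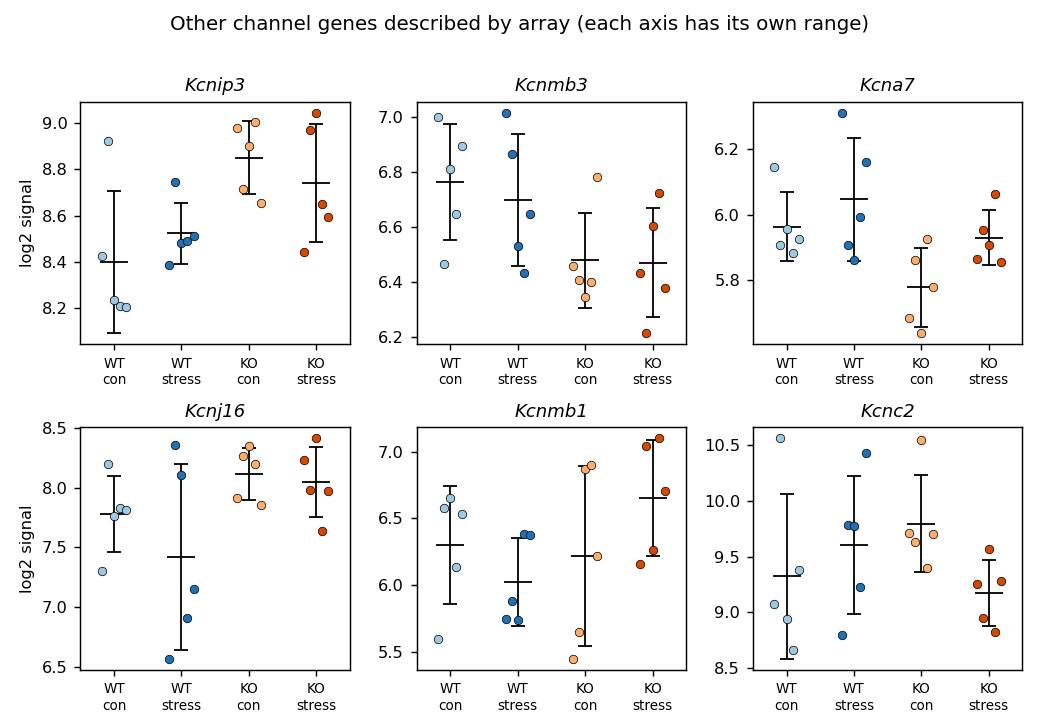
Log2 signal of each array (points, 5 per group) for Kcnip3, Kcnmb3, Kcna7, Kcnj16, Kcnmb1 and Kcnc2, with group mean (wide line) and SD (error bar), and an axis range of its own for each gene. Kcnip3 sits higher in KO con than in 4 of 5 WT con arrays, Kcnj16 spreads widest in WT stress, and Kcnc2 is lower in KO stress than in KO con except for 1 array.

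Averaged over conditions, 3 channel genes were called higher and 4 lower in KO (3.33% and 4.44%, against 4.71% and 7.34% of all probe sets). Kcnip3 differed by 0.33 (SE 0.10), Kcnmb3 by -0.26 (SE 0.09) and Kcne1l, an auxiliary subunit, by 0.18 (SE 0.07), and these 3 calls held in each alternative. Kcnj16 (0.48), Kcnj15 (-0.12), Kcna7 (-0.15) and Kcnmb4os1 (-0.12) were the others. Kcnj2, Kcnj16, Kcnab3 and Kcnmb1 lie on chromosome 11, as does Slc6a4. So do Kcnip1, Kcnj12 and Kcnh4, which were not called in any comparison. The part of linked sequence in the differences of these genes was not tested. Averaged over genotypes, 0 channel genes were called for stress at an unadjusted p (1.67% of all probe sets). Without both arrays that stand apart there were 2.

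Markers of tissues and cells that a dissected amygdala could hold moved as well, and in a tissue fewer cells of a type and less RNA per cell cannot be told apart. After stress in WT, markers of pallial excitatory neurons were higher for 16 of 20 (median 0.29, 3 called) and those of GABAergic interneurons lower for 11 of 16 (median -0.33, 4 called). Of all probe sets 62.8% were higher in this comparison (2.99% called higher) and 37.1% lower (0.556% called lower). The pallial list includes Nr4a2 and Lmo3, which the study listed as higher in WT after stress on these arrays. Array scores of the pallial list, the mean of its centred members, ran from -0.39 to 0.00 in WT con and from -0.26 to 0.66 in WT stress. With that score as a covariate the WT stress difference of Kcnq3 was 0.35 (SE 0.17) and that of Kcnmb4 0.23 (SE 0.17), and neither was called. In the interaction, pallial markers were lower for 16 of 20 (median -0.33, 1 called) and striatal and central amygdala markers for 13 of 16 (median -0.49, 0 called). Microglia markers were lower for 12 of 14. Other lists went the other way. Choroid plexus markers were higher for 16 of 17 and those of meninges and fibroblasts for 17 of 18. Markers of endothelium, pericytes and smooth muscle were higher for 15 of 17, as were those of astrocytes. Hypothalamic and medial amygdala markers were higher for 15 of 19, GABAergic for 10 of 16 (2 called higher, 1 lower) and thalamic for 9 of 15. Oligodendrocyte markers were divided (8 higher, 9 lower). Of all probe sets 59.7% were lower in the interaction (1.81% called lower) and 40.3% higher (0.702% called higher). Kcnab2 and Kcnk4 were not called in the interaction with the pallial score as a covariate (-0.48 and -0.35).

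After stress in KO, 17 of 17 choroid plexus markers were higher (median 0.985, 7 called) and 17 of 18 of meninges and fibroblasts (median 0.78, 6 called). Of all probe sets 48.5% were higher in this comparison, with 0.827% called higher. Many choroid plexus markers, Ttr, Kl, Clic6 and Prlr among them, were listed by the study as higher in this comparison on these arrays. So were Igf2, Igfbp2 and Col1a2 of the meninges list. These counts and the choroid plexus score are thus not independent of the study's list. Choroid plexus scores ran from -0.76 to -0.25 in KO con and from -0.36 to 1.51 in KO stress. With that score as a covariate the difference of Kcnab3 in KO was -0.29 (SE 0.21), which was not called. Between the stressed groups, markers of endothelium, pericytes and smooth muscle were higher in KO for 15 of 17 (median 0.20, 1 called) and astrocyte markers for 16 of 17 (median 0.18, 4 called). So were those of meninges and fibroblasts for 17 of 18 (1 called) and choroid plexus for 15 of 17 (0 called). GABAergic markers were higher for 11 of 16 (4 called) and oligodendrocyte markers for 13 of 17 (1 called), while pallial markers were lower for 13 of 20. Kcnmb1 and Kcnj16 were higher in KO too, and a link with the smooth muscle or astrocyte markers was not tested. Of all probe sets 41.2% were higher in KO between the stressed groups, with 3.05% called higher. Astrocyte scores ran from -0.69 to 0.10 in WT stress and from 0.02 to 0.24 in KO stress. No measured marker of these lists had a mean under 5. With the choroid plexus score as a covariate the interactions of Kcns3 (-0.32) and Kcna4 (-0.70), the con KO vs. WT differences of Kcnab3 (0.36) and Kcna7 (-0.17), and the stress KO vs. WT differences of Kcnmb1 (0.52), Kcnmb2 (-0.20), Kcnj2 (-0.55), Kcnmb4 (-0.31) and Kcnmb4os1 (-0.17) were not called. With the thalamic score those of Kcnmb1 (0.49), Kcnj2 (-0.57), Kcnmb4 (-0.33) and Kcnmb4os1 (-0.14) between the stressed groups were not called, nor was that of Kcnmb4 in WT (0.33). The striatal score ended the calls of Kcnab3 in con KO vs. WT (0.37) and Kcnmb4 in WT (0.32), and the pallial score those of Kcnj16 (0.49) and Kcnmb4 (-0.29) in stress KO vs. WT. The scores of the other marker lists were not used as covariates.

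Proteins that bind potassium channels, such as sulfonylurea receptors, DPP-like proteins, ankyrins and LRRC gamma subunits, were followed as a list of which 28 of 29 genes were measured. In WT 18 were higher after stress, in KO 24 were lower, and the interaction was below 0 for 23, against 62.8%, 51% and 59.7% of all probe sets, so that the WT share is near the background. In the interaction 2 of the 28 were called (1.81% of all probe sets), Adam23 (-0.36, SE 0.15) and Ank3 (-0.24, SE 0.10), the scaffold that holds Kv7 channels at the axon initial segment. Dpp10, a Kv4 partner, differed by -0.42 in WT stress vs. con (SE 0.16) and by 0.39 in stress KO vs. WT (SE 0.16), both called. Lrrc52 (-0.17) and Lrrc26 (-0.26), both gamma subunits, were called lower in stress KO vs. WT, as were Ank3 (-0.18) and Abcc8. These were 4 of the 28, where 6.23% of all probe sets were called lower.

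Of potassium pumps and cotransporters 21 of 25 listed genes were measured. Called higher were 2 in WT stress vs. con and 2 in KO stress vs. con, against 2.99% and 0.827% of all probe sets. In stress KO vs. WT 1 was called higher and 2 lower, against 3.05% and 6.23%. Slc24a2, a potassium-dependent sodium and calcium exchanger of neurons, was higher by 0.62 in WT stress vs. con and differed by -0.65 in stress KO vs. WT and by -0.93 in the interaction (SE 0.19, 0.19 and 0.26, all called). The study listed Slc24a2 for WT stress vs. con and stress KO vs. WT on these arrays, so that these calls are not independent evidence. Fxyd1, a regulator of the sodium pump (0.56), and Slc12a7, a potassium chloride cotransporter (0.34), were called higher in KO stress vs. con. Atp12a, the only gene of this list with a mean signal under 5, differed by 0.16 in WT stress vs. con and by -0.13 in stress KO vs. WT. Fxyd6 differed by 0.46 in the latter comparison. The 3 HCN genes measured, which carry the mixed cation current at hyperpolarized potentials, were lower after stress in both genotypes without a call. Of all probe sets 17.6% were lower in both.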

How the data were processed

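Amygdala RNA of 20 mice was measured on Affymetrix whole-transcript arrays. The authors' ExonRMA summary in ArrayAssist, after a variance-stabilizing step, was deposited as log2 signals, which were used as they stand (0 columns unused). Gene symbols came from the platform's probe table, and all 90 gene IDs matched RefSeq of GRCm38.p6. The members, the lists and the choice of tests were made with earlier results of these data known.

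Limma 3.58.1 in R 4.3.3 was fitted to 4 group means over all 28767 probe sets (lmFit, eBayes, 16 residual and 2.10 prior degrees of freedom), with Benjamini-Hochberg adjustment. The study used unpaired t-tests with a fold over 1.5. Single genes also had an exact two-sided permutation test of 5 against 5 arrays. The fit was also tested on simulated data. Alternatives were the methods' t-test, the 2 groups alone, other scaling, filters and moderation, array weights, marker scores as covariates, the replicate block and leaving out arrays. Arrays carry no counts, and their number limits the precision.

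Genes named were those at an unadjusted p under 0.05 in a comparison, the 3 highest and lowest differences, the largest and smallest SD, those of the study's tables, called genes of related lists and Slc6a4. The highest and lowest level in each family, also in that rule, are left out, since signals of different probe sets are not on one scale. Kcnab1, Kcnma1, Kcne1l and Kcnv1 were named after their values were seen, and the counts of signs and the WT pairs were put through alternatives chosen after seeing the data. Lists covered neurons (pallial, striatal and central amygdala, GABAergic, thalamic, hypothalamic and medial amygdala), choroid plexus, meninges, vessels, astrocytes, oligodendrocytes, microglia, channel partners, HCN genes and potassium pumps.

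Arrays are numbered 1 to 5 in each group by the labels, which do not say what a number means. Deviations from the group means correlated at 0.162 to 0.420 for the 5 same-numbered WT pairs, each over 0.1. In the other pairs of groups only 2 or 3 of 5 did, although the highest single value, 0.512, was in stress KO vs. WT. The number was used as a block or as WT pairs in alternatives only. The main fit and the permutation tests take the arrays as unpaired. Other batches are not given in the sources used here.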

Additional observations from a re-analysis of the deposited data

Results flagged for a closer look

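Of 88 groups of 5 arrays checked for 22 genes, 7 had an array far from the rest of its group, where chance gives about 1 in 20. Of the 7, 5 were WT con replicate 1, the array that also correlated less with the others, each time with the highest value. It read 8.42 for Kcnj4 (the other 4 arrays 6.36 to 6.74), 10.24 for Kcnab2 (9.67 to 9.83), 8.18 for Kcnj11 (7.38 to 7.58), 6.144 for Kcna7 (5.88 to 5.96) and 6.09 for Kcnj15 (5.80 to 5.86). KO con replicate 3 read 10.55 for Kcnc2 (9.40 to 9.71) and KO con replicate 5 read 6.78 for Kcnmb3 (6.34 to 6.46). The cause was not tested.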

How the results depend on the processing

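Of 1298 alternative values of 39 gene differences 1076 kept direction and side of the threshold, 217 lost the call, 5 gained it and 0 reversed. Of the 39, 13 kept the call in each alternative.

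Counts of called channel genes moved more. Calls of all probe sets can move with a setting too, and their shares are given here and above for the main fit only. The counts under alternatives are thus not read as particular to channel genes. In WT stress vs. con the main count was 3, and it was 7 with the 2 groups alone, 6 with genes of mean 5 or more, 6 with trend and robust moderation, 9 with array weights, 7 and 6 with the striatal and thalamic scores as covariates and 11 without both arrays that stand apart. In KO stress vs. con, 2 became 4 with the methods' t-test and 4 with the choroid plexus score. In con KO vs. WT, 4 became 8 with the methods' t-test, with array weights and without both arrays that stand apart. In the interaction, 10 became 17 without both arrays. For stress averaged over genotypes, 0 became 1 with array weights, 1 with the striatal score and 2 without both arrays. For genotype averaged over conditions, 7 became 4 under quantile normalization and 17 with the striatal score.

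With the replicate block in all groups the counts were 11 in WT stress vs. con, 5 in KO stress vs. con and 12 for genotype averaged over conditions. With the replicate block in 1 genotype alone they were 6 in WT and 11 in KO, and Kcnmb4 lost its call in WT. The block changed each other count by 1.5 times or less.

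Leaving out each array in turn gave 1 to 12 in WT stress vs. con, 1 to 4 in KO stress vs. con, 1 to 11 in con KO vs. WT, 6 to 14 in stress KO vs. WT, 6 to 17 in the interaction of genotype and stress, 0 to 3 in the average of stress over genotypes and 6 to 12 in the average of genotype over conditions. The lowest WT stress vs. con counts came without WT con replicates 4 or 5, and the highest without WT con replicate 1. The interaction was lowest without WT con replicate 4, KO con replicate 1 or KO stress replicate 2 and highest without WT con replicate 1. The con KO vs. WT count was lowest without KO con replicate 1 and highest without WT con replicate 2, and that of stress KO vs. WT lowest without KO stress replicate 2. The cause was not tested. No channel gene passed the adjusted threshold at this number of arrays, by limma or the methods' t-test.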

Other observations

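Markers of hypothalamic and medial amygdala neurons were higher in stress KO vs. WT for 15 of 19 (median 0.29, 3 called) and those of thalamic neurons for 12 of 15 (median 0.20, 0 called). Of all probe sets 41.2% were higher in that comparison, with 3.05% called higher. Microglia markers were lower in KO stress vs. con for 13 of 14 (median -0.05, 0 called) and higher in con KO vs. WT for 12 of 14 (median 0.19, 2 called), and oligodendrocyte markers were lower in KO stress vs. con for 14 of 17 (median -0.06, 0 called). Of all probe sets 51% were lower in KO stress vs. con (0.306% called lower) and 50% higher in con KO vs. WT (1.9% called higher). The array with the highest signal for the most channel genes was WT stress replicate 1, for 23 of 90, which is near its share of 28.9% of all probe sets. KO con replicate 1 was highest for 13 channel genes, against 3.73% of all probe sets. The mean deviation of the 90 channel genes from their own means ran from -0.12 to 0.05 in WT con, -0.07 to 0.10 in WT stress, -0.03 to 0.13 in KO con and -0.10 to 0.05 in KO stress.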
